A study of Mus musculus with 81 samples.

Results

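P5 germ cells of F3 fetal testes were compared between offspring lines of TBT-exposed and DMSO-exposed F0 dams, at LTR (long terminal repeat) retrotransposon loci. Members were the samples whose labels name F3, RNA and P5, and these were 9 of the 81 samples of the series, 4 in the DMSO group and 5 in the TBT group. All fetuses carried the OG2 transgene, in which the Pou5f1 (Oct4) promoter drives EGFP, and the testes were taken at E18.5. The F0 dams of the TBT group had been exposed to 50 nM tributyltin (TBT), an organotin that binds retinoid X receptors and PPARG, and those of the DMSO group to 0.1% DMSO, so that the F3 animals themselves received neither. P5 is a population of EGFP-positive cells that FACS separated from the other EGFP-positive population, P4, by side scatter. The gate rests on the transgene and on side scatter and not on a stage marker. Samples are named here by group and by the number in their label, DMSO 1 to DMSO 4 and TBT 5 to TBT 9. The labels do not say whether samples of a group came from separate litters, and the p-values then measure only the spread between these samples.

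LTR retrotransposons are remnants of retroviral insertions. A complete copy has an internal region, named with the suffix int, between 2 LTRs, and most copies have been reduced to a solitary LTR. They fall into the classes ERV1, ERVK, ERVL and ERVL-MaLR, and the name that RepeatMasker gives to a repeat is called a species. In fetal male germ cells DNA methylation is erased and then laid down again before birth, and young elements such as the intracisternal A particles (IAP) are held down in this window by histone methylation and by the piRNA pathway. LTRs also act as promoters and as transcript ends, and many lie inside genes, where a read can come from the transcript of the host gene.

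The values cover 970384 LTR loci of 680 species on GRCm38, of which 64.5% lay outside genes, 33.0% in introns and 2.48% in exons. The sequences of 6 loci outside genes are given, 3 because their groups did not overlap and 3 because they had some of the highest values, although none passed the threshold in limma. They are written as read from the plus strand of GRCm38, whole or as their first 300 bases. The file gives no strand for a locus. Capitals mark AATAAA, the poly(A) signal, or TTTATT, the same signal on the minus strand, and runs of at least 10 A or T, at which an oligo-dT primer can anneal. A match is a description of the letters and not a site in use. Among loci of like length, 35.5% of those of at least 300 bases contained either motif in the window read and 2.50% contained such a run. The MTE2a locus at chr15:86791610-86791987 and the MTE2b locus at chr1:190316172-190316503 had more reads in every TBT sample than in any DMSO sample, and neither window contained a motif or a run.
MTE2a: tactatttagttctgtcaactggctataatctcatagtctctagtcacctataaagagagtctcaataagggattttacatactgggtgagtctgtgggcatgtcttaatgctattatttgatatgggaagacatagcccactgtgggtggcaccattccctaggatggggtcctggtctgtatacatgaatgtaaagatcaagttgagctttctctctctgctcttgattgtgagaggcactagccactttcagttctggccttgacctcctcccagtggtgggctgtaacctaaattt
MTE2b: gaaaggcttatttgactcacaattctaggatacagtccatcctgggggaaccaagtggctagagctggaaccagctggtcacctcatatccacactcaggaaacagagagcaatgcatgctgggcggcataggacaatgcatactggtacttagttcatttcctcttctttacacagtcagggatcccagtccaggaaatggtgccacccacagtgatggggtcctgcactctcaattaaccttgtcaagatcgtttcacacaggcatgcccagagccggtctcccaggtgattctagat
The IAPLTR2_Mm locus at chr12:85649934-85650355 had fewer reads in every TBT sample than in any DMSO sample, and its window contained 1 TTTATT.
IAPLTR2_Mm: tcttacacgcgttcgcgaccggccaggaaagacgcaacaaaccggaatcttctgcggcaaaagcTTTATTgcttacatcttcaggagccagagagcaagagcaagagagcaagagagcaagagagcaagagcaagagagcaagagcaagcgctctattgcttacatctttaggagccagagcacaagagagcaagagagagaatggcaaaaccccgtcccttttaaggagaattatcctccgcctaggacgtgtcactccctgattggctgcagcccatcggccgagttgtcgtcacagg
The remaining 3 loci were among the 5 that had the highest mean value outside genes. They were MTEa at chr9:99170793-99171006, with 1 AATAAA (27.8% of loci of like length contained either motif), RLTR25B at chr2:168311009-168311105, with no motif (13.5% of loci of like length contained one), and ERVB7_2-LTR_MM at chr1:95499175-95499505, which holds a run of 22 A.
MTEa: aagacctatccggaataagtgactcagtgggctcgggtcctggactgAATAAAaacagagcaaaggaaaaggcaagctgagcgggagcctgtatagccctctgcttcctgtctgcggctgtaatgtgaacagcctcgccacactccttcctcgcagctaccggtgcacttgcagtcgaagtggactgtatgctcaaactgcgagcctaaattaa
RLTR25B: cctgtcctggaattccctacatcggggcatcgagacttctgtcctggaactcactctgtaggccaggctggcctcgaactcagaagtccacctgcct
ERVB7_2-LTR_MM: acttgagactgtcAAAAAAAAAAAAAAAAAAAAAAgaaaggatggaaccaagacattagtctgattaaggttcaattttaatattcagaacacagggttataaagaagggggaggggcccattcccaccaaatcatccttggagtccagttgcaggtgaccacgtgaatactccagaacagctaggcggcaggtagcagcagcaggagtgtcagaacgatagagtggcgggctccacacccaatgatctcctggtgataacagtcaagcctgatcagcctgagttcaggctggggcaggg

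The number of recovered reads at LTR loci was 2017404, 1606422, 8161548 and 4505277 in DMSO 1 to 4, and 246520, 4775705, 6253807, 3549702 and 4130319 in TBT 5 to 9. TBT 5 had reads at 18169 loci, against 68251 to 277728 in the other samples, and the deposited values carry a scaling factor of 4.24 for it, against 0.703 to 1.45 for the others. A set of 3 samples stood apart from the rest. The rank correlation between samples over loci lay between 0.441 and 0.812 among the other 6, and between 0.123 and 0.390 in pairs that held DMSO 1, DMSO 2 or TBT 5. These 3 samples also had the highest shares of reads outside genes. No pair of samples had counts that were alike within sampling noise (lowest chi-square per degree of freedom 2.70). Levels are therefore given mainly at a common total of reads (RPM, with the reads at all LTR loci of a sample as its total), and the main differences also on the deposited scale and without these samples. The median difference of all tested loci was 0.15 on the log2 scale for the 105423 loci tested on the deposited scale and 0.02 for the 116799 tested at a common total.

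**Figure D1:**
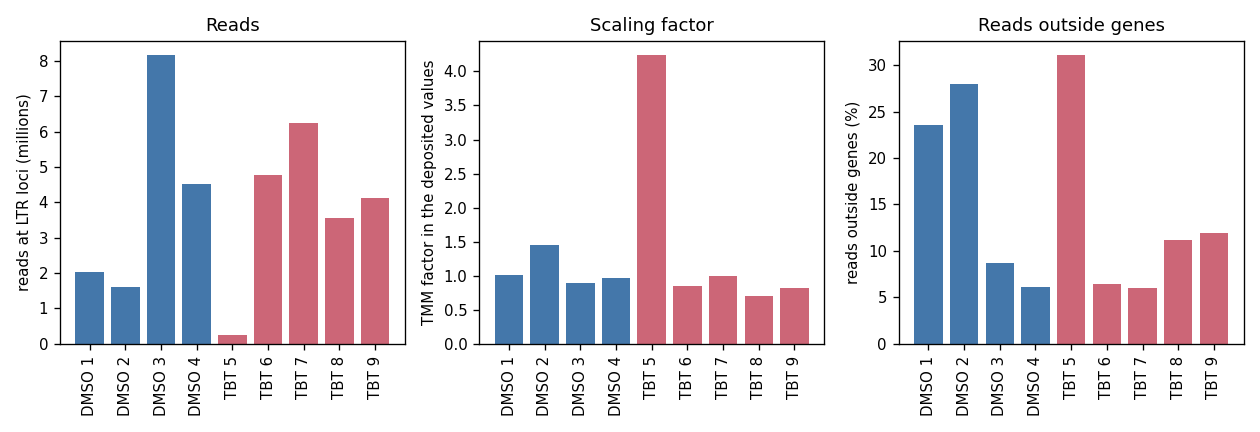
Reads at LTR loci, scaling factor of the deposited values and share of reads outside genes in percent, as 1 bar for each of the 4 DMSO (blue) and 5 TBT (red) samples. TBT 5 has 246520 reads and a factor of 4.24, and DMSO 1, DMSO 2 and TBT 5 have the 3 highest shares outside genes.

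The label of the cells was checked against gene lists, through the LTR loci that lie inside the listed genes. Reads in germ cell identity genes, which include the RNA-binding proteins Dazl and Ddx4, were 3968, 4264, 7051 and 6969 RPM in DMSO 1 to 4 and 2442, 7486, 6957, 5689 and 5528 in TBT 5 to 9. The same loci had 31.3 to 154 RPM in the P6 somatic cells of F3 testes. Reads in genes of the piRNA pathway ran from 16591 to 41332 RPM in P5 samples and from 39.7 to 602 in P6 samples. Both list totals therefore lay far above somatic cells in all 9 samples. In TBT 5 they rested on few genes, with Fkbp6 at 12774 of the 16591 RPM in piRNA genes and Stk31 and Brdt at 1521 and 531 of the 2442 in germ cell genes, while Mael at 60.8 and Tdrd9 at 73.0 lay near the highest P6 values (57.0 and 59.2) and Asz1, Piwil4, Tdrd1 and Tdrd12 were at 0. Sertoli genes had 0 to 646 RPM, below the 1584 to 2719 of P6 cells, and the largest part came from Dmrt1, which fetal germ cells also express, with 0 to 559, except in DMSO 1, where Inha, the inhibin alpha chain, had 16.4 against 10.9. Leydig and interstitial genes had 0 to 90.2 RPM in 8 samples and 422 in DMSO 2, of which 336 lay in Lama2, the laminin alpha 2 chain, against 3005 to 4552 in P6 cells. The P6 reads lay mainly in Lama2 (1554 to 3233) and Dcn (923 to 1273), and these, Nr2f2 and Cyp17a1 were lower in every P5 sample. Cyp11a1, at 0 to 22.5 in P5 samples and 16.3 to 38.4 in P6 samples, overlapped. Lhcgr did as well, with 49.8 in DMSO 2 against 2.44 to 11.1 in P6 samples. Endothelial, blood and muscle genes had 12.2 to 229 RPM, with 491 to 706 in P6 cells, mainly in Acta2, Myh11 and Cdh5. In this list Flt1, a VEGF receptor, lay the other way, with 11.4 to 94.6 RPM in P5 samples and 0.199 to 7.64 in P6 samples, and Tek, Pecam1 and Adgre1 overlapped P6 cells. In TBT 5, Ddx4, Dazl and Dmrt1 were at 0 and the Sertoli and Leydig lists as well, while Stk31, a germ cell kinase, was at 1521, within 949.6 and 1901 of the other 8 samples. The part of these differences between samples in the results below was not tested.

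**Figure D2:**
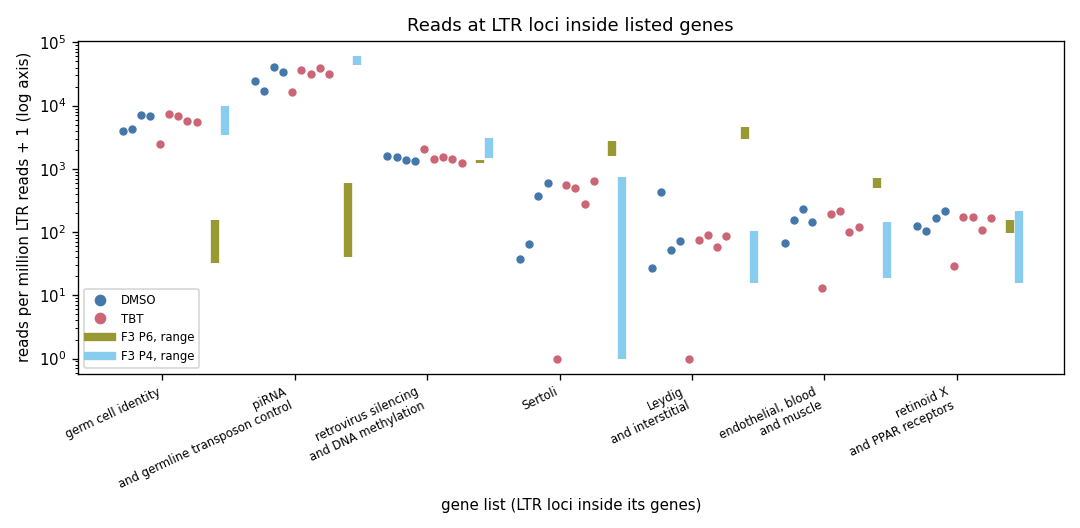
Reads at LTR loci inside the genes of 7 lists, in RPM plus 1 on a log axis, for the 4 DMSO (blue) and 5 TBT (red) P5 samples, with the range of the F3 P6 and F3 P4 samples as bars. Germ cell and piRNA genes lie between 2442 and 41332 in P5 samples and at or below 602 in P6 samples, and the Sertoli and Leydig lists are at 0 in TBT 5.

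The first question was where the reads lie and whether that differed between the groups. Loci outside genes took 23.5%, 27.9%, 8.75% and 6.12% of the reads in DMSO 1 to 4, and 31.1%, 6.44%, 6.06%, 11.2% and 11.9% in TBT 5 to 9. The groups overlapped, with 16.6% ± 10.8 (SD, n = 4) in DMSO and 13.3% ± 10.3 (SD, n = 5) in TBT (exact two-sided permutation test, p = 0.746). Without DMSO 1, DMSO 2 and TBT 5 the shares were 6.12% and 8.75% in DMSO and 6.06% to 11.9% in TBT. Introns took 75.3% ± 11.7 in DMSO and 77.7% ± 12.4 in TBT (exact permutation p = 0.762). Exons took 8.12% ± 0.955 and 8.96% ± 2.20 (exact permutation p = 0.587). The ERVL-MaLR class, which holds the MT, ORR1 and MLT1 repeats, took 45.9% ± 3.28 and 46.9% ± 3.13, the ERVK class, which holds the IAPs, 32.2% ± 4.01 and 30.7% ± 3.24, and the ERV1 class 6.74% ± 0.836 and 6.55% ± 0.929. Several of these differences turned without DMSO 1, DMSO 2 and TBT 5, to −2.18 percentage points for introns, −0.54 for ERVL-MaLR, 0.58 for ERVK and 0.14 for ERV1, while loci outside genes turned to 1.46.

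Among the reads outside genes alone the 2 ERVL classes had higher shares in TBT samples, with 1 or more samples overlapping. The share of ERVL-MaLR was 30.2%, 31.4%, 30.3% and 32.4% in DMSO 1 to 4, and 32.3%, 33.3%, 33.5%, 32.5% and 33.3% in TBT 5 to 9, a difference of 1.91 percentage points with DMSO 4 just above TBT 5 (exact permutation p = 0.0317, adjusted over 13 shares 0.206). That of ERVL was 8.35% ± 0.589 in DMSO and 9.29% ± 0.390 in TBT (exact permutation p = 0.0317, adjusted 0.206), with DMSO 4 at 9.10% above TBT 8 at 8.73%. These 2 shares were chosen after the data had been seen and fail the correction, and the smallest p that 4 against 5 samples can give is 0.0159. Without DMSO 1, DMSO 2 and TBT 5 the differences were 1.80 and 0.543 percentage points.

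The LTR loci were then summed into 28 family groups. On the deposited scale the mean log2 total was lower in TBT than in DMSO in 28 of 28 groups, and 0 passed a Benjamini-Hochberg adjusted p under 0.05 (exact permutation, lowest adjusted p 0.984). At a common total the split was 12 higher and 16 lower, again with 0 past the threshold (lowest adjusted p 0.267). Without TBT 5 the deposited scale gave 18 higher and 10 lower, without DMSO 3 11 and 17, and without DMSO 4 7 and 21. The direction of many family groups on the deposited scale therefore turned with 1 sample left out, and levels are given here in RPM.

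IAP internal regions, the coding part of an ERVK element that is still mobile in mice, had 8737, 8086, 7265 and 5815 RPM in DMSO 1 to 4, and 7079, 5667, 5518, 5060 and 5793 in TBT 5 to 9. Only DMSO 4 lay within the range of the TBT samples. The difference was −0.35 on the log2 scale at a common total (exact permutation p = 0.0317, adjusted 0.267), and −0.24 without DMSO 1, DMSO 2 and TBT 5. On the deposited scale it was −0.49 (p = 0.333, exact permutation), and −0.092 without TBT 5. IAP long terminal repeats had 10351 ± 4334 (SD, n = 4) in DMSO and 7416 ± 2435 (SD, n = 5) in TBT, with DMSO 1, DMSO 2 and TBT 5 as the 3 highest samples, and the difference was −0.43 with all samples, −0.57 on the deposited scale and −0.084 at a common total without these 3. The total of IAPEz-int, the species of highest mean among the internal regions, was 4953, 4765, 4067 and 3588 RPM in DMSO and 4774, 3825, 3457, 3419 and 3412 in TBT (difference −0.20, limma adjusted p 0.979). The IAP-d-int total was 565.6, 669, 772 and 531 RPM in DMSO and 48.7, 337, 507, 363 and 521 in TBT, and the groups did not overlap (difference −1.19, standard error 0.63, limma adjusted p 0.979). The difference was −0.56 without TBT 5, the lowest sample.

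MMERGLN, an ERV1 family with a glutamine primer binding site, was the group with the clearest separation at a common total. It had 1799, 1779, 1476 and 1038 RPM in DMSO 1 to 4, and 982, 834, 950, 921 and 1033 in TBT 5 to 9. Every TBT sample lay below every DMSO sample, by as little as 1038 against 1033, with a difference of −0.66 (exact permutation p = 0.0159, the smallest possible, adjusted 0.267). On the deposited scale the groups overlapped, since DMSO 2 at 1225 and DMSO 4 at 1080 CPM lay below TBT 8 at 1309 and TBT 9 at 1250. The difference on that scale was −0.79 (exact permutation p = 0.0952), and −0.34 without TBT 5. At a common total the difference was −0.41 without DMSO 1, DMSO 2 and TBT 5, and −0.68 without TBT 5 alone. In F3 P4 cells the same group differed by 0.21 and in F1 P5 cells by 0.25, both towards TBT.

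VL30 and RLTR6, virus-like elements of the ERV1 class that are packaged by murine leukaemia viruses, had 4595, 4776, 2796 and 1903 RPM in DMSO and 2069, 1626, 1836, 1661 and 2363 in TBT. DMSO 1, 2 and 3 lay above all TBT samples, and DMSO 4 within them (difference −0.80, exact permutation p = 0.0476, adjusted 0.267, and −0.32 without DMSO 1, DMSO 2 and TBT 5). On the deposited scale the difference was −0.93 (exact permutation p = 0.0794), and −0.50 without TBT 5. RLTR1 elements showed 5685 ± 2369 in DMSO and 3758 ± 784 in TBT (difference −0.52, exact permutation p = 0.175, −0.65 on the deposited scale, and −0.076 at a common total without the same 3 samples). The total of RLTR1B-int was 2971, 3824, 2026 and 1146 RPM in DMSO and 1111, 1210, 1120, 1302 and 1619 in TBT, so that DMSO 4 fell among the TBT samples (difference −0.85, standard error 0.31, limma adjusted p 0.979, and −0.23 without the 3 samples). MuRRS, MURVY and MuLV elements had 4905 ± 1039 and 4262 ± 1280 (exact permutation p = 0.365).

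MMERVK10 and RLTR10, ERVK elements, had 27537, 27808, 13515 and 9154 RPM in DMSO and 24602, 8868, 8337, 12449 and 12238 in TBT. DMSO 1, DMSO 2 and TBT 5 were the 3 highest, with the groups overlapping (difference −0.52, exact permutation p = 0.254, −0.65 on the deposited scale, and −0.11 at a common total without these 3). ETn and MusD, a frequent source of new insertional mutations in mice, showed the same arrangement, with 8840, 8959 and 9107 in those 3 samples and 3404 to 5009 in the other 6. Another 8 groups had their 3 highest totals in DMSO 1, DMSO 2 and TBT 5, and these were RLTR1, MuRRS, MURVY and MuLV, MMERVK9 and RLTR9, ERVB, RMER16 and RMER17, RMER19, RLTR44 and RLTR45, and RLTR13. For these 8 the difference at a common total lay between −0.52 and −0.053 with all samples. Without the 3 samples it was −0.076 for RLTR1 and −0.16 for MuRRS, MURVY and MuLV, and between 0.044 and 0.18 for the other 6.

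**Figure D3:**
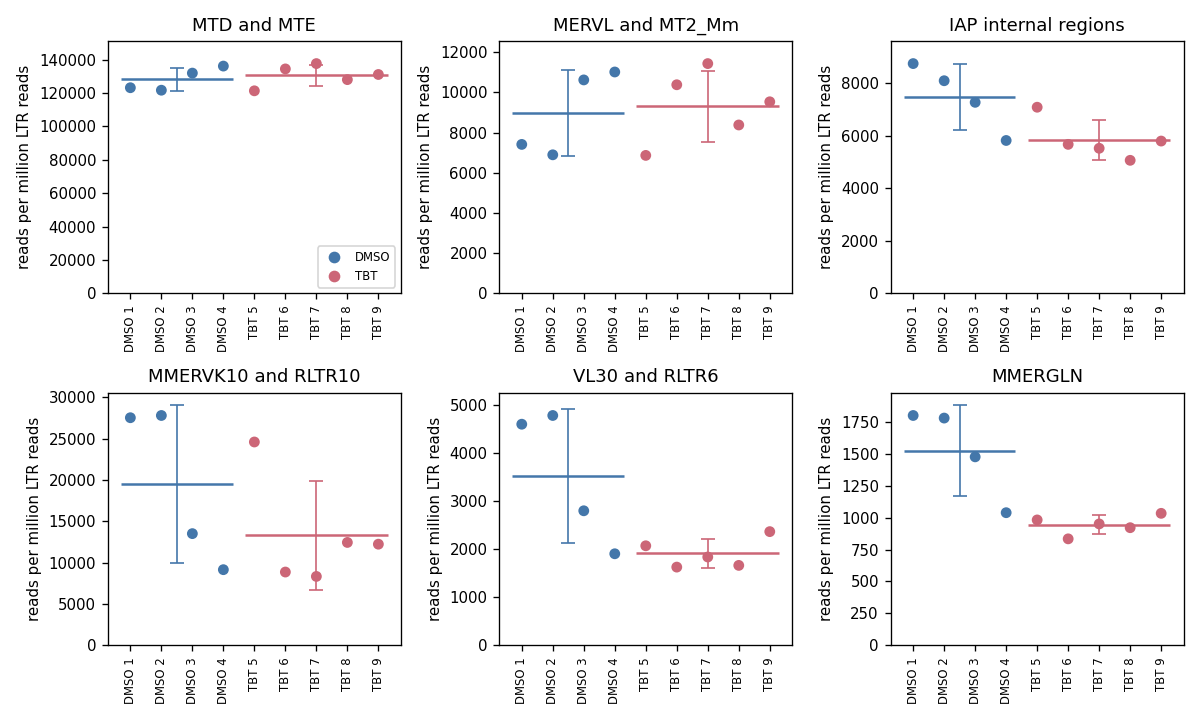
Totals of 6 family groups in RPM, 1 point per sample, with the group mean as a line and the SD as a bar, for DMSO (blue, n = 4) and TBT (red, n = 5). MMERGLN lies at 1038 or more in DMSO and at 1033 or less in TBT, and in the panel of MMERVK10 and RLTR10 the samples DMSO 1, DMSO 2 and TBT 5 are the 3 highest.

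MERVL and its LTR MT2_Mm, an ERVL element whose transcription marks totipotent cells of the cleavage-stage embryo, had 7410, 6893, 10617 and 11011 RPM in DMSO and 6864, 10376, 11429, 8376 and 9529 in TBT. The groups overlapped throughout (difference 0.06, exact permutation p = 0.778). The older MT2 LTRs took 7.08% of all P5 reads and showed 68844 ± 8992 in DMSO and 72359 ± 6215 in TBT (exact permutation p = 0.683). MTD and MTE, ERVL-MaLR repeats, formed the group with the most reads, 12.9% of the total, with 128231 ± 6941 and 130502 ± 6265 (difference 0.03, exact permutation p = 0.619). MTA, which includes promoters used in growing oocytes, had 19276 ± 900 and 19931 ± 767 (difference 0.05, exact permutation p = 0.190), and MTB and MTC 51557 ± 4359 and 51211 ± 5836. The 3 ORR1 groups differed by 0.03 to 0.06 and MLT1 by 0.03.

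The ancient LTR, MLT2, MER and MamGyp repeats, shared with other mammals, had 51432, 47737, 51455 and 52668 RPM in DMSO and 59014, 53240, 53174, 53275 and 52133 in TBT, with DMSO 4 above TBT 9 and the other samples separated (difference 0.09, exact permutation p = 0.0317, adjusted 0.267, and 0.02 without DMSO 1, DMSO 2 and TBT 5). RMER10 and RMER15 had 29966 ± 1149 and 31672 ± 1320 (difference 0.08, exact permutation p = 0.0476, adjusted 0.267, and 0.04 without the 3 samples). Both differences were negative on the deposited scale, at −0.04 and −0.05.

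**Figure D4:**
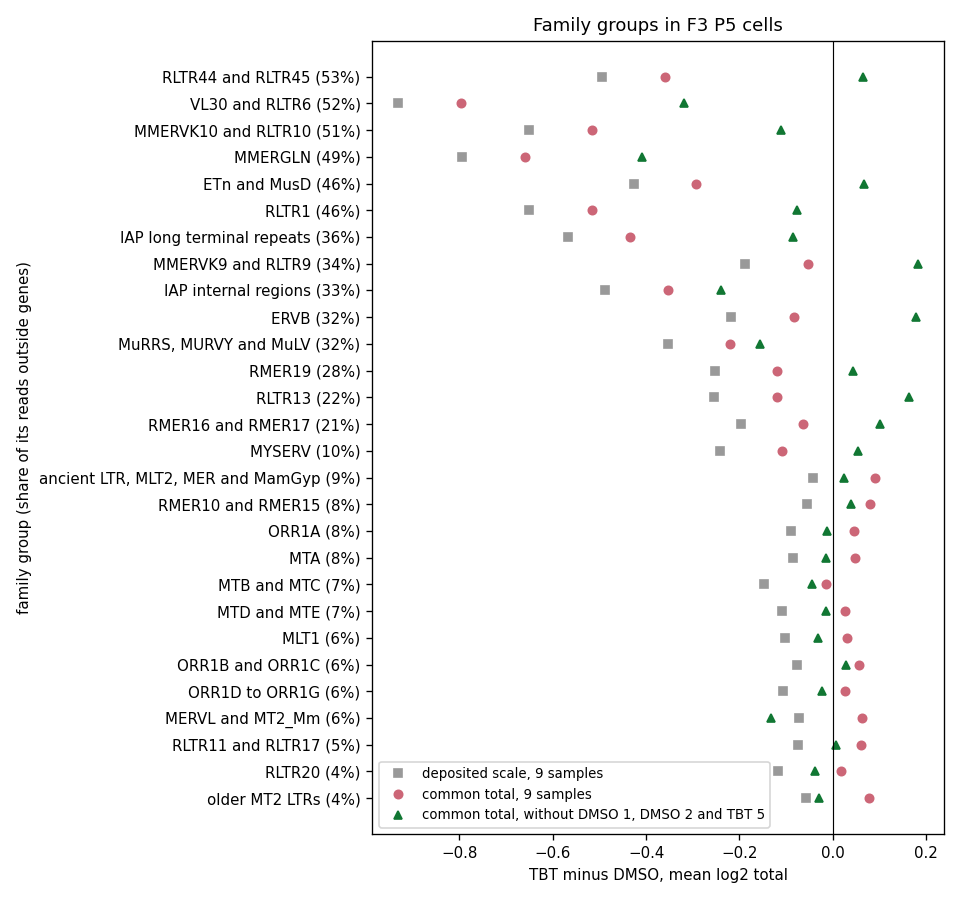
Difference between the TBT and DMSO means of log2 totals for the 28 family groups, ordered by the share of their reads that lies outside genes (percent in brackets), on the deposited scale (squares), at a common total (circles) and at a common total without DMSO 1, DMSO 2 and TBT 5 (triangles). All 28 squares lie below 0, the circles split 12 to 16, and the triangles lie nearer to 0 than the circles for VL30 and RLTR6 (−0.32 against −0.80) and for MMERGLN (−0.41 against −0.66).

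Totals of single species came next. None of 663 species totals passed an FDR of 0.05 in limma on log2(CPM + 0.293), where 0.293 CPM is 1 unit, the median value of 1 read (0% called, 0 at an unadjusted p under 0.05). The quasi-likelihood test of edgeR on the recovered reads also called 0, with 16 at an unadjusted p under 0.05, and DESeq2 called 0, with 25. Of the species with the most reads, MTD had 57880, 57665, 61835 and 64253 RPM in DMSO and 58056, 62851, 64454, 61219 and 61788 in TBT, and the groups overlapped (difference −0.10 ± 0.68 on the deposited scale, ± being the standard error, and 0.03 ± 0.05 at a common total). MT2B had 41952 ± 6665 and 44792 ± 4171 (SD). Of the 17 leading species of the ERV1 and ERVK groups, 12 had a negative difference on both scales, while RLTR17B_Mm (0.12), RLTR20A4 (0.048), ERVB7_2-LTR_MM (0.066), RLTR13D3A1 (0.052) and RMER17C (0.020) had a positive one at a common total. MMVL30-int differed by −1.12 ± 0.57 on the deposited scale and −0.99 ± 0.35 at a common total, RLTR10-int by −0.93 ± 0.53 and −0.79 ± 0.52, RLTR1B-int by −0.98 ± 0.60 and −0.85 ± 0.31, and IAPLTR2_Mm by −0.71 ± 0.51 and −0.57 ± 0.34. Without DMSO 1, DMSO 2 and TBT 5 the same 4 differed at a common total by −0.34, −0.20, −0.23 and −0.17.

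At a common total, 9 of the 663 species (1.36%) did not overlap between the groups, 4 lower and 5 higher in TBT, and these are named after their values were seen. The lower ones were MMERGLN-int, IAP-d-int, IAPLTR1a_Mm and RLTR1D. MMERGLN-int had 1120, 1216, 1152 and 798 RPM in DMSO and 767, 649, 765, 635 and 785 in TBT (difference −0.56 ± 0.16, limma adjusted p 0.979, −0.44 without the 3 samples). IAPLTR1a_Mm had 862, 866, 736 and 662 in DMSO and 406, 597, 616, 592 and 633 in TBT (−0.47 ± 0.18, limma adjusted p 0.979). The higher ones were MLT1J2, MER31B, MER74B, RLTR19B and MamGypLTR1c, of which all but RLTR19B are repeats shared with other mammals. MER31B had 455, 515, 496 and 489 in DMSO and 580, 548, 532, 569 and 558 in TBT (0.19 ± 0.13, limma adjusted p 0.979). On the deposited scale 0 of the 663 species were separated.

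At single loci, 0 of 105423 tested loci passed an FDR of 0.05 in limma (0% called, 1066 at an unadjusted p under 0.05). The quasi-likelihood test of edgeR called 0 as well, with 7763 at an unadjusted p under 0.05. The likelihood ratio test of edgeR on the recovered reads, the test that the study used, called 696 loci higher (0.66%) and 2601 lower (2.47%). Of the 2601 lower loci, 72.7% lay outside genes, against 17.5% of all tested loci. Reads were absent from TBT 5 at 99.96% of the lower loci and at 87.3% of all tested loci. A locus called lower has its high values in DMSO samples by selection, and among these the highest value at a common total was in DMSO 1 or DMSO 2 at 98.0%, in DMSO 3 at 2.00% and in DMSO 4 at 0%. The groups did not overlap at a common total in 1.31% of the lower loci, against 0.636% of all tested loci. Of the 696 higher loci, 71.8% lay outside genes and 6.75% did not overlap at a common total (0.636% of all tested loci). A locus called higher has its high values in TBT samples by selection. TBT 5 had the highest value at a common total at 78.3% of them and TBT 8 at 10.6%. Over all tested loci the highest value was in TBT 5 at 8.32%, in TBT 8 at 8.33%, in DMSO 1 at 15.9% and in DMSO 2 at 18.2%. The same test called 0 loci with library totals in place of the TMM scaling, 11 without TBT 5 (10 higher and 1 lower) and 804 without DMSO 1, DMSO 2 and TBT 5 (516 higher and 288 lower), so that the excess of lower calls was lost without TBT 5 and turned without the 3. With 1 weight per sample limma called 586 loci (0.556%), 454 higher and 132 lower. The weights were 0.084 for TBT 5, 0.14 for DMSO 2 and 0.23 for DMSO 1, and 0.915 to 5.95 for the other samples. Over the 105423 loci, 175 (0.166%) were higher in every TBT sample than in any DMSO sample on the deposited scale, and 276 (0.262%) were lower.

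The 6 loci of smallest unadjusted p among those that were higher in TBT without overlap are given first. The MTE2a locus printed above, outside genes and 293107 bases from Tbc1d22a, had 0, 0, 0 and 3 reads in DMSO 1 to 4 and 47, 17, 20, 27 and 25 in TBT 5 to 9. This was 0.173 ± 0.346 CPM (SD, n = 4) against 14.1 ± 17.5 (SD, n = 5), a log2 difference of 4.51 with a standard error of 1.38 (limma adjusted p 1.00, quasi-likelihood adjusted p 0.116). The MTE2b locus, outside genes and 145458 bases from Prox1, had 0 reads in each DMSO sample and 110, 8, 5, 19 and 7 in TBT. Another 3 lay in RNA genes. An MTEa locus at chr7:37124300-37124590, in an intron of Gm28078, had 0, 0, 0 and 7 reads in DMSO and 69, 25, 23, 19 and 55 in TBT. An ORR1A2 locus at chr8:11946636-11946961, in an intron of Gm45680, had 0, 0, 1 and 8 reads in DMSO and 11, 38, 34, 20 and 69 in TBT. An MLTR31C_MM locus at chr18:15429179-15429736, in an exon of AC133525.2, had 0, 0, 0 and 6 in DMSO and 84, 25, 16, 23 and 6 in TBT. The last, an RLTR5_Mm locus at chr2:27495219-27495806, lay in an intron of Brd3, a reader of acetylated histones, and had 0, 0, 0 and 1 read in DMSO and 131, 17, 19, 6 and 17 in TBT. For each of the 6 the DMSO 1 and DMSO 2 samples had 0 reads. The likelihood ratio test gave adjusted p of 0.0096 to 0.024, except for the ORR1A2 locus (0.090). The differences of the 6 at a common total lay between 2.64 and 3.52 without DMSO 1, DMSO 2 and TBT 5. In F3 P4 cells the reads at these loci ran from 0 to 81 per sample.

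Of the 6 loci chosen in the same way among those lower in TBT, 5 were ERVK elements. The ETnERV2-int locus at chr7:48160782-48161170, outside genes and 6813 bases from Mrgprb5, had 28, 145, 144 and 8 reads in DMSO and 0, 0, 0, 0 and 5 in TBT, or 24.4 ± 26.2 CPM against 0.293 ± 0.655 (log2 difference −5.06, standard error 1.37, limma adjusted p 1.00, quasi-likelihood adjusted p 0.116). The IAP1-MM_I-int locus at chr10:83454933-83455377, in an exon of D10Wsu102e, had 66, 127, 4 and 2 reads in DMSO and 0 in each TBT sample. The IAPLTR2_Mm locus printed above, 10056 bases from Jdp2, had 43, 118, 68 and 18 reads in DMSO and 0, 12, 12, 2 and 0 in TBT (log2 difference −3.99, standard error 1.44, limma adjusted p 1.00). An RLTR6-int locus of 4398 bases at chr7:35566293-35570690, 8303 bases from Rgs9bp, had 40, 90, 86 and 76 reads in DMSO and 0, 4, 24, 4 and 0 in TBT, and was the only one of the 6 in which all DMSO samples had at least 40 reads. MMERVK10C-int loci at chr18:83668113-83668380 and chr19:51250638-51250815 had 38, 47, 89 and 6 reads, and 56, 74, 6 and 4, in DMSO, and at most 4 reads in any TBT sample. At all 6 loci DMSO 2 had the highest value at a common total, and the likelihood ratio test gave adjusted p of 0.0088 to 0.043. Of these, 4 could be fitted without DMSO 1, DMSO 2 and TBT 5, with differences at a common total between −4.11 and −2.59.

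**Figure D5:**
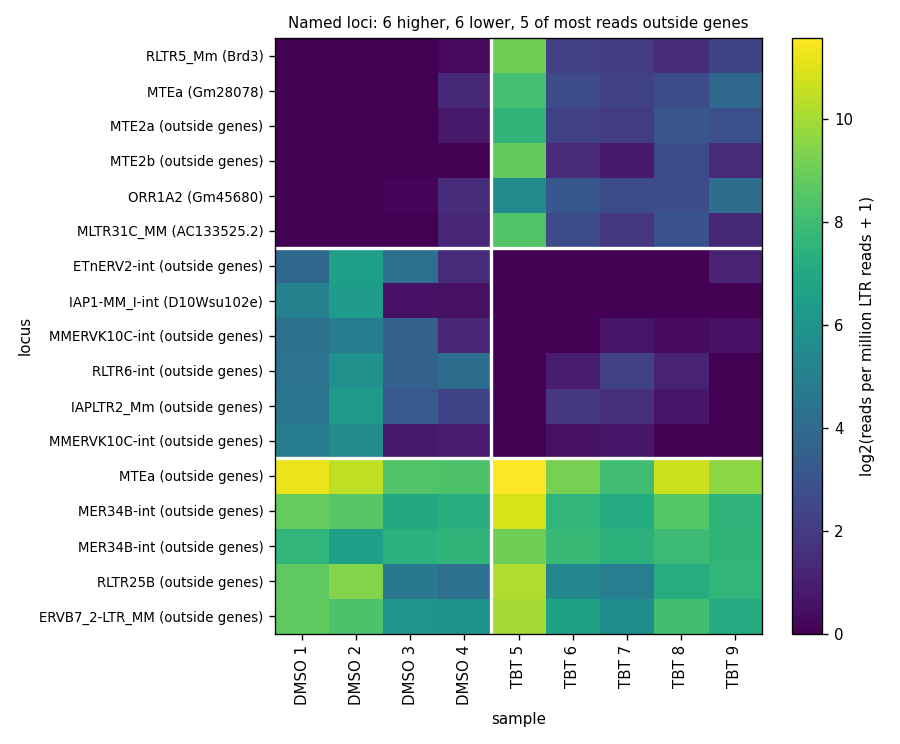
Colour shows log2(RPM + 1) in each of the 9 samples for the 6 loci higher in TBT, the 6 lower and the 5 of highest mean outside genes, from top to bottom. TBT 5 has the brightest cell in each row of the upper block (131 reads at the RLTR5_Mm locus in Brd3), and TBT 5 is also the highest sample in each row of the lowest block.

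The 5 loci outside genes with the highest mean did not separate the groups. The MTEa locus printed above, 30172 bases from Pik3cb, had 4782, 2279, 2772 and 1467 reads in DMSO and 744, 2764, 1605, 5822 and 3152 in TBT, or 1013 ± 940.4 CPM against 981 ± 793 (log2 difference 0.06, standard error 0.40). RLTR25B, 29273 bases from Kcng1, had 411, 477, 26.7 and 18.2 CPM in DMSO and 271, 46.2, 29.7, 199 and 232 in TBT, so that values within 1 group ranged over more than the distance between the groups (0.17, standard error 0.84). ERVB7_2-LTR_MM, 88177 bases from St8sia4, had 420.0, 213, 70.8 and 60.9 CPM in DMSO and 244, 113, 49.0, 374 and 164 in TBT (0.12, standard error 0.75). A pair of MER34B-int loci on chromosome 3, near Lce1d, differed by 0.27 and 0.56 with standard errors of 0.62 and 0.70. Without DMSO 1, DMSO 2 and TBT 5 the differences on the deposited scale were 1.12 for MTEa, 2.00 for RLTR25B, 1.04 for ERVB7_2-LTR_MM, and 0.70 and 0.35 for the MER34B-int pair, over 2 DMSO and 4 TBT samples.

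Reads were next summed over the LTR loci inside each annotated gene. A host gene total counts reads at repeats in introns and exons, and in bulk samples fewer cells of a type and less RNA per cell cannot be told apart. Of 15546 totals, 0 passed an FDR of 0.05 in limma (0% called, 164 at an unadjusted p under 0.05), and the quasi-likelihood test of edgeR called 0, with 463. On the deposited scale all TBT samples lay above all DMSO samples in 37 genes (0.238%) and below in 47 (0.302%). At a common total these were 58 (0.373%) and 72 (0.463%). Among the genes that were higher without overlap, Ushbp1, whose protein binds the Usher syndrome protein harmonin, had 0, 0, 0 and 7 reads at its 4 LTR loci in DMSO and 14, 33, 22, 61 and 45 in TBT (log2 difference 4.53, standard error 1.21, limma adjusted p 1.00, and 3.78 at a common total without DMSO 1, DMSO 2 and TBT 5). Zfp30, a KRAB zinc finger gene, a class whose members bind retrotransposons, had 0, 0, 11 and 7 reads in DMSO and 57, 29, 25, 51 and 36 in TBT (log2 difference 4.15, standard error 1.30, limma adjusted p 1.00, and 2.20 at a common total without the same 3 samples). C1qtnf3, a secreted adipokine, had 12, 0, 0 and 37 in DMSO and 89, 39, 85, 118 and 128 in TBT, and its groups overlapped at a common total. The others were the lincRNA genes Gm28078, Gm45680 and Gm17518, the last with 0 reads in each DMSO sample and 4 to 13 in TBT.

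Among genes that were lower without overlap, C87414, a member of a multi-copy gene family in which reads can be split between copies, had 6, 24, 109 and 12 reads in DMSO and 0, 0, 2, 0 and 0 in TBT (log2 difference −4.22, standard error 1.06, limma adjusted p 1.00). Grk1, rhodopsin kinase of photoreceptors, had 8, 14, 137 and 16 in DMSO and 0, 1, 0, 8 and 0 in TBT. Gm43532, Gm4489, Gm9920 and Gm15221 are RNA genes, and Gm15221 had 43, 29, 80 and 15 reads in DMSO and 0, 3, 5, 4 and 2 in TBT (log2 difference −3.55, standard error 1.18, limma adjusted p 1.00, and −2.65 at a common total without the 3 samples). None of these 12 genes passed the threshold in limma or in the quasi-likelihood test, and DESeq2 called Gm9920 (adjusted p 0.0215) and Gm15221 (adjusted p 0.0472).

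The genes that control retrotransposons were read in the same way. In the list of piRNA and germline transposon control, 18 of 20 genes had a tested total and 0 were called (0 at an unadjusted p under 0.05 in either direction). Their median log2 difference was −0.22 on the deposited scale and −0.27 at a common total, against 0.02 and −0.04 over all host genes tested. The median turned with TBT 5, to 0.50 at a common total without it (0.58 over all host genes), and was −0.53 without DMSO 1, DMSO 2 and TBT 5 (−0.0094 over all). Fkbp6, a co-chaperone of PIWI proteins, had 19929, 13332, 28082 and 20508 RPM in DMSO and 12774, 25235, 18008, 32244 and 23963 in TBT, with overlapping groups. Mael, which acts in piRNA production, had 969, 919, 2703 and 2538 in DMSO and 60.8, 3287, 2399, 2884 and 2517 in TBT. Morc1, which represses transposons in male germ cells, had 534, 515, 3332 and 2703 in DMSO and 393, 2218, 2633, 783 and 1132 in TBT. In each of the 3 genes TBT 5 was the lowest sample, and DMSO 1 and DMSO 2 were the lowest of their group.

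In the list of retrovirus silencing and DNA methylation, 20 of 22 genes were tested and 0 called, with a median log2 difference of −0.01 on the deposited scale and 0.10 at a common total (0.33 without TBT 5 and −0.14 without the 3 samples). Mphosph8, a subunit of the HUSH silencing complex, had 827, 757, 321 and 233 in DMSO and 588, 463, 221, 795 and 452 in TBT. Kdm1a, a histone H3K4 demethylase, had 141, 110, 405 and 428 in DMSO and 114, 358, 457, 117 and 215 in TBT. Hells, a chromatin remodeler needed for DNA methylation of repeats, had 53.2 to 239 in DMSO and 87.7 to 430.0 in TBT. Of the germ cell identity genes 12 of 20 were tested and 0 called (median −0.51 and −0.55, and at a common total 0.34 without TBT 5 and −0.23 without the 3 samples). The receptors that TBT binds and their relatives gave 8 tested totals of 11 and 0 called (median −0.12 and −0.42, and at a common total 0.63 without TBT 5 and −0.67 without the 3 samples). Rxra, a retinoid X receptor, had 14.9, 28.0, 33.7 and 33.3 RPM in DMSO and 0, 17.4, 34.7, 10.7 and 16.2 in TBT. In the Sertoli, Leydig and endothelial lists 7, 6 and 8 totals were tested and 0 called in each (median log2 difference at a common total 0.97, −0.34 and −0.22). These medians were 2.17, 0.44 and 0.67 without TBT 5, and 0.40, 0.83 and −0.56 without DMSO 1, DMSO 2 and TBT 5.

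Whether any change was particular to P5 cells was tested as the difference between the TBT effects of F3 P5 and F3 P4 cells, over the 18 samples that share a table. None of 98076 loci passed an FDR of 0.05 in limma (0% called, 1364 at an unadjusted p under 0.05), nor did any of 662 species totals (0% called, 2 at an unadjusted p under 0.05). The quasi-likelihood test of edgeR called 0 of both, with 3733 loci and 20 species at an unadjusted p under 0.05. For MMERGLN-int the 2 effects differed by −0.71 on the log2 scale (unadjusted p 0.248 from limma, and 0.164 with the label number as a block). Its level was 278 ± 52.2 and 372 ± 58.7 RPM in DMSO and TBT P4 samples, below each of the P5 samples. RLTR10-int stood at 573 ± 33.2 and 658 ± 106 in P4 cells, and at 1462 to 7811 over the 9 P5 samples.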

How the data were processed

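RNA of FACS-sorted P5 cells was converted to cDNA with an oligo-dT primer (SMART-seq). The authors trimmed reads with Trim Galore, aligned them with STAR and deposited a signal per RepeatMasker LTR locus, CPM after TMM scaling (edgeR). How reads that align to several copies were counted, and on which strand, is not given in the sources used here, so the split between copies is uncertain. Whole reads were recovered by dividing each sample by its smallest value above 0: 100% of the values came out whole (tolerance 0.01). Locus starts were taken to be counted from 0, since 63.0% of 26448 LTRs then begin with TG, against 2.29% otherwise, and 1 was added. Genes were those of GENCODE on GRCm38.

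Values were tested as log2(CPM + 1 unit), with 1 unit 0.293 CPM, by limma 3.58.1 (trended variance, R 4.3.3) where the mean was at least 5 units, at an FDR of 0.05 (Benjamini-Hochberg over all features tested). Fold changes on this scale understate those of low loci, and a fitted fold change against a group at 0 is no bound. Family groups and shares used an exact two-sided permutation test over samples. edgeR 4.0.16 and DESeq2 1.42.0 were run on the recovered reads as alternatives, beside other pseudocounts, filters, scalings and samples left out. The main limma fit, the edgeR tests and the permutation test were first tested on simulated data with known changes. The simulated counts held no sample that stood apart as in these data, and the other steps were not tested in this way. Tables and figures used numpy 2.4.6, pandas 2.3.3, scipy 1.17.1 and matplotlib 3.10.9 in Python 3.11.15.

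The samples, family groups, gene lists and tests were chosen with earlier results of these data known. Species were named for the 10 highest means and as the highest of each family group, loci and genes as the 6 higher and 6 lower of smallest unadjusted p whose groups do not overlap (for loci, from a mean of 20 units up, 1 per gene or 100 kb), the 5 loci outside genes of highest mean, and up to 4 genes per list by mean. Retroviral internal sequences are not printed. Intervals of counting error do not apply to these values beyond the reads given.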

Additional observations from a re-analysis of the deposited data

Results flagged for a closer look

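A sample was singled out where it lay far from the rest of its group of 4 or 5, by a gap test that picks about 1 group in 20 by chance. Of 154 groups tested, 23 were picked, 20 of them for TBT 5, and the cause was not tested. TBT 5 had the scaling factor of 4.24, 31.1% of its reads outside genes, 56.3% in introns and 13.4% at ERVL loci. Its totals, in RPM of LTR reads, were low among TBT samples for older MT2 LTRs (61561), ORR1D to ORR1G (73856), ORR1D1 (20242), ORR1E (13971) and RMER17C (5675).

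TBT 5 was high for ORR1A (49274), ancient LTR, MLT2, MER and MamGyp repeats (59014), MMERVK10 and RLTR10 (24602), RLTR10-int (5440), MMERVK9 and RLTR9 (12494), MuRRS, MURVY and MuLV (6498), ETn and MusD (9107), RMER19 (18124), RMER19B (9703), RLTR44 and RLTR45 (13184) and ERVB7_2-LTR_MM (4783). TBT 8 was high for RMER10 and RMER15 (33958) and for RMER15 alone (22560). DMSO 2 was high for the reads in Leydig and interstitial genes (422), of which Lama2 held 336.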

How the results depend on the processing

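The counts of loci, species, host genes and differences between P4 and P5 effects that passed the threshold were 0 in limma, and stayed at 0 at a common total and with each sample left out in turn. They also stayed at 0 with pseudocounts of 0.25 and 4 units, with no filter or a mean of at least 20 units and with the quasi-likelihood test of edgeR. The exceptions were 3297 loci with the likelihood ratio test, 11 with that test without TBT 5, 804 without DMSO 1, DMSO 2 and TBT 5, 586 loci and 12 host genes with 1 weight per sample, 6 host genes with DESeq2, and 4 and 61 host genes with the likelihood ratio test without TBT 5 and without the 3 samples. Family groups had an exact permutation test, in which 1 group alone separated cannot pass the adjustment over 28, so that their counts of 0 say nothing of stability. The tests that use the recovered reads, the common totals without samples and the class shares outside genes were in part chosen after seeing the data. The cause of the differences between settings was not tested. Depth limits the comparison most in TBT 5, where 1 read is worth 0.957 CPM.

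With each sample left out in turn, the difference in the share of reads, in percentage points, lay between −7.69 and 0.53 outside genes, positive only without DMSO 2, between −1.56 and 7.77 in introns (−0.26 without DMSO 1), between −0.084 and 1.26 in exons, negative only without TBT 5, and between −0.56 and 0.049 for ERV1 (0.027 without DMSO 2 and 0.030 without TBT 7). The directions of the other 3 class shares held with 1 sample left out, but all 3 turned without DMSO 1, DMSO 2 and TBT 5 (ERVL-MaLR −0.54, ERVL −0.17 and ERVK 0.58). On the deposited scale, leaving out TBT 5 turned the RLTR25B locus to −0.15 and the ERVB7_2-LTR_MM locus to −0.046. At a common total it turned these to −0.48 and −0.38, the MTEa locus on chromosome 9 to −0.25 and 1 of the MER34B-int loci to −0.22. It also turned genes of the lists on the deposited scale, among them Mael (−0.42 to 1.14), Morc1 (−0.26 to 0.60), Fkbp6 (−0.021 to 0.63), Kdm1a (−0.21 to 0.49) and Mphosph8 (−0.14 to 0.24). The host genes named for their separation kept their sign without TBT 5 where they could be tested.

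All 31 named species totals were lower in TBT on the deposited scale, and most small differences turned with the scaling. At a common total 18 became positive: MTD 0.031, MT2B 0.10, MTC 0.0081, ORR1D1 0.050, RLTR17B_Mm 0.12, ORR1F 0.035, RMER15 0.12, ORR1B1 0.077, MTEa 0.019, ORR1A2 0.082, MTA_Mm 0.046, RLTR20A4 0.048, MLT1B 0.082, RMER17C 0.020, MERVL_2A-int 0.048, MER21C 0.069, ERVB7_2-LTR_MM 0.066 and RLTR13D3A1 0.052. Without TBT 5, 23 did: MTD 0.39, MT2B 0.50, MTC 0.42, ORR1D1 0.48, RLTR17B_Mm 0.52, ORR1F 0.46, RMER15 0.46, ORR1B1 0.39, ORR1E 0.39, MTEa 0.33, ORR1A2 0.39, MTA_Mm 0.39, RLTR20A4 0.60, MLT1B 0.44, RMER19B 0.072, RMER17C 0.40, MERVL_2A-int 0.52, IAPEz-int 0.044, MYSERV6-int 0.11, MER21C 0.53, MMERVK9C_I-int 0.083, MURVY-int 0.43 and RLTR13D3A1 0.24. Without DMSO 1, DMSO 2 and TBT 5, 24 did: MTD 0.13, MT2B 0.11, MTC 0.11, ORR1D1 0.11, RLTR17B_Mm 0.13, ORR1F 0.094, RMER15 0.20, ORR1B1 0.21, ORR1E 0.14, MTEa 0.14, ORR1A2 0.15, MTA_Mm 0.12, RLTR20A4 0.040, MLT1B 0.15, RMER19B 0.14, RMER17C 0.19, MERVL_2A-int 0.098, IAPEz-int 0.022, MYSERV6-int 0.27, RLTRETN_Mm 0.34, MMERVK9C_I-int 0.30, ERVB7_2-LTR_MM 0.82, MURVY-int 0.15 and RLTR13D3A1 0.48. With both changes 12 did: RMER15 0.061, ORR1B1 0.074, ORR1A2 0.0090, MLT1B 0.0096, RMER19B 0.0015, RMER17C 0.048, MYSERV6-int 0.13, RLTRETN_Mm 0.20, MMERVK9C_I-int 0.16, ERVB7_2-LTR_MM 0.68, MURVY-int 0.014 and RLTR13D3A1 0.34.

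P4 and P5 samples share label numbers. With the number as a replicate block, 0 loci and 0 species passed for the difference between the 2 populations (6510 and 15 at an unadjusted p under 0.05). Deviations of same-numbered samples correlated at 0.336 to 0.643 over 601 species in 7 of the 9 pairs, at 0.017 for number 8 and at −0.375 for number 9, and none of the 9 correlated best with its own number. FACS divides 1 suspension of testis cells into these populations, but the labels do not say in words that a number marks 1 preparation, and the block changed no call. DMSO and TBT samples share no number and could not be paired.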

Other observations

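The host genes Gpm6b, Lrrc3b, Hs3st3a1 and Serpinb9 had LTR reads in TBT 6 to TBT 9, at most 5 in any DMSO sample and 0 in TBT 5. They are named here after their values were seen. DESeq2 called 6 genes, the likelihood ratio test of edgeR without TBT 5 called 4 and limma with 1 weight per sample called 12, while limma without weights and the quasi-likelihood test called 0. Gpm6b, a proteolipid-family membrane protein best known from neurons, had 0, 2, 0 and 2 reads in DMSO 1 to 4 and 0, 125, 103, 65 and 112 in TBT 5 to 9. All 3 of these tests called it, with adjusted p of 0.0363 (DESeq2), 0.00495 (likelihood ratio test) and 0.00392 (weighted limma). The likelihood ratio test here left out TBT 5, and weighted limma gave TBT 5 a weight of 0.050. The weights were 0.16 for DMSO 2 and 0.34 for DMSO 1, and 1.29 to 5.05 for the other samples. Lrrc3b, a leucine-rich repeat protein, had 3, 0, 5 and 0 reads in DMSO and 0, 114, 54, 92 and 283 in TBT, and all 3 tests called it too. Hs3st3a1, a heparan sulfate sulfotransferase, had 0 reads in each DMSO sample and 0, 40, 20, 80 and 110 in TBT (DESeq2 adjusted p 0.0207). Serpinb9, an inhibitor of granzyme B, had 0 in each DMSO sample and 0, 40, 52, 21 and 19 in TBT, and 2 of the tests called it. DMSO 3 was the most deeply read of the 9 samples.

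Sorbs2, Lrrtm3, Hs3st2, Pla2g4a, Gm16157, 4930526F13Rik, 4930458D05Rik and Gm35019 were called by weighted limma and not by the other 2 tests, and all 8 had reads in at least 1 DMSO sample. Gm35019 had 8, 186, 0 and 27 reads in DMSO and 33 in TBT 5, and Lrrtm3 had 25, 109, 0 and 0 in DMSO and 15 in TBT 5. Hs3st2, a relative of Hs3st3a1, had 12, 85, 6 and 2 reads in DMSO and 0, 109, 108, 66 and 47 in TBT. Gm9920 and Gm15221 were the 2 genes that DESeq2 called lower, and Gm26799 had 0 in each DMSO sample and 7, 67, 28, 0 and 41 reads in TBT (DESeq2 adjusted p 0.0488). Ppard, the delta member of the PPAR receptors, had 0, 0, 13 and 3 reads in DMSO and 0, 12, 85, 48 and 94 in TBT, a log2 difference of 3.19 with a standard error of 1.47 (limma adjusted p 1.00, unadjusted p 0.0471 on the deposited scale and 0.0561 at a common total). Ppard belongs to the list of 8 tested receptor totals, in which 2 differences lay above 0 and 6 below at a common total (median −0.42). In each of Gpm6b, Lrrc3b, Hs3st3a1, Serpinb9 and Ppard the TBT 5 sample, with 246520 reads in all, had 0.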
